A study of Mus musculus with 2 samples.

Results

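The 10 genes described here are the TGF-beta ligands Tgfb1, Tgfb2 and Tgfb3, the receptors Tgfbr1, Tgfbr2 and Tgfbr3, the inhibitor Smad7, and Id1, Id2 and Id3. They were taken by name from the 32285 genes counted in each library, and all 10 matched their Ensembl identifiers. The study profiled single cells of mouse mammary tissue with Gpm6a deleted (KO) and without the deletion (WT). Gpm6a encodes a membrane glycoprotein of the proteolipid family. Each genotype is 1 library of live (DAPI-negative) sorted cells from 3 littermates, so the animals are pooled. Both groups were C57BL/6 virgin females of 6 to 8 weeks, and the tissue was mammary gland number 4.

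TGF-beta ligands are secreted in a latent form bound to matrix proteins and are released by integrins and proteases. Active ligand binds the type II receptor (Tgfbr2), which phosphorylates the type I receptor (Tgfbr1), and this receptor phosphorylates Smad2 and Smad3. Smad7 is induced by the pathway and blocks the type I receptor. Id proteins bind E proteins and keep them off DNA, and Id1 and Id3 are textbook targets of the BMP branch of the same superfamily. In the mammary gland TGF-beta is known for restraining ductal growth and for its action on stroma.

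The KO library gave 10472 analysed cells with a median of 9521 unique molecular identifiers (UMIs, counts of distinct captured transcripts), and the WT library 10523 cells with a median of 11086. Cells were classed from marker genes after clustering on a gene set that left out the 10 genes and Gpm6a, so no level below was used to form a class. From 35 clusters, 12 classes with enough cells in each library were compared: 3 epithelial classes (basal, luminal progenitor, hormone-sensing luminal), fibroblasts, pericyte or smooth muscle cells, vascular endothelium, and 6 immune classes. Although the label speaks of epithelial cells, fibroblasts made up 43.4% of KO and 35.6% of WT cells. One immune class is given by its number, cluster 15, because it carried all 6 markers of type 1 and all 6 of type 2 dendritic cells. Macrophages carried their own 7 of 7 markers and also 7 of 7 T cell markers above the other cells. Gpm6a itself had 29 UMIs in KO (0.225 counts per 1000000, CPM) and 284 in WT (1.91 CPM), over whole libraries. Vascular endothelium held 75.9% of these UMIs in KO and 7.04% in WT, and the level of Gpm6a was not compared within a class. In WT that was the largest share of any named class, and basal cells followed at 5.28%. Most WT UMIs of Gpm6a thus lay in cells outside the named classes. There were 33 barcodes common to both libraries (0.288% in KO, 0.268% in WT). With 1 library per genotype no test between genotypes is possible. The intervals below are 95% intervals of counting error only, and levels are CPM of a class's summed UMIs. Reads come from transcript 3′ ends, so a gene is compared across classes and libraries but not with another gene.

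Among the ligands, Tgfb1 was a gene of leukocytes and endothelium. Tgfb1 (chromosome 7, 25687002 to 25705077 of GRCm38) stood at 249 CPM in KO and 238 in WT natural killer cells, at 220.3 and 202 in endothelium, and at 191 and 203 in B cells. Macrophages (156 and 159) and cluster 15 (159 and 160.4) had nearly the same level, and T cells 95.2 and 102. Mature dendritic cells were the immune exception, at 26.0 and 33.7. Fibroblasts had 37.1 and 46.7, and hormone-sensing cells 35.2 and 32.6. The luminal progenitors were lowest, at 11.7 and 9.54. In the order of mean levels the ranges of the KO and WT values of endothelium and B cells overlapped, so those neighbours cannot be ordered.

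Tgfb2, a ligand that needs the co-receptor Tgfbr3 to bind well, was a gene of mural cells, luminal progenitors and fibroblasts. Tgfb2 (chromosome 1, 186622792 to 186705989, overlapped at its start by Gm29491 on the other strand) reached 103 CPM in KO and 107 in WT pericyte or smooth muscle cells. Luminal progenitors had 55.8 and 85.8, fibroblasts 53.4 and 78.7, and basal cells 36.9 and 47.8. Hormone-sensing cells, the other luminal class, had 0.286 and 2.29, from 7 and 52 UMIs. Natural killer cells had no UMI in either library, where the interval reaches 6.39 CPM in KO and 8.27 in WT. Luminal progenitors and fibroblasts could not be ordered, because their ranges overlapped.

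Tgfb3 was highest in the same mural class. Tgfb3 (chromosome 12, 86056745 to 86079041, overlapped on the other strand by Ttll5) stood at 114 CPM in KO and 161 in WT pericyte or smooth muscle cells. Luminal progenitors followed at 43.1 and 37.3, basal cells at 30.9 and 36.7, and fibroblasts at 19.7 and 20.4. Hormone-sensing cells were again low, at 7.47 and 13.3. B cells, taken as a class that should lack Tgfb2 and Tgfb3, had 7.18 and 10.0 CPM of the first and 4.78 and 10.0 of the second. The hormone-sensing level of Tgfb2 was below that of B cells. B cells are an unequal reference for the luminal classes, because their summed fibroblast markers were 3312 CPM in KO and 3553 in WT, against 268 and 781 in luminal progenitors and 83.2 and 348 in hormone-sensing cells.

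The receptors had a different layout. Tgfbr2, the ligand-binding kinase (chromosome 9, 116084293 to 116175360), was highest in fibroblasts at 303 CPM in KO and 325 in WT. T cells had 183 and 150.5, natural killer cells 173 and 141, and the hormone-sensing class 112 and 112. Luminal progenitors had 57.2 and 72.3, and basal cells 54.1 and 51.7. Within the luminal lineage Tgfb2 and Tgfbr2 thus had opposite orders: the class low in Tgfb2 had more Tgfbr2, in both libraries. This did not hold for every ligand and receptor. Tgfb1 was higher in hormone-sensing cells (35.2 CPM in KO and 32.6 in WT) than in progenitors (11.7 and 9.54). Tgfbr1 was lower in hormone-sensing cells (17.75 and 17.4) than in progenitors (33.3 and 33.6), and so was Tgfbr3.

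Tgfbr1, the signalling kinase (chromosome 4, 47353222 to 47414931), was spread more evenly. Macrophages had 97.9 CPM in KO and 118 in WT, basal cells 72.9 and 71.8, fibroblasts 67.6 and 60.7, and endothelium 63.4 and 62.0. The lowest measured class was T cells, at 14.7 and 14.6. Fibroblasts and endothelium could not be ordered.

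Tgfbr3, the co-receptor betaglycan (chromosome 5, 107106570 to 107289629), was a gene of fibroblasts, basal cells and endothelium. Fibroblasts had 287 CPM in KO and 288 in WT, basal cells 158 and 201, and endothelium 155 and 164. Both luminal classes were low: progenitors had 10.3 and 16.95, and hormone-sensing cells 1.88 and 3.35. B cells, which should lack the gene, had 11.4 and 17.2. If the gene and the fibroblast markers came over in the ratio they have in fibroblasts of the same library, the carried-over level would be 17.4 and 16.5 CPM in B cells, but 1.40 and 3.62 in progenitors and 0.437 and 1.61 in hormone-sensing cells.

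Smad7 (Ensembl ENSMUSG00000025880) was measured in all 12 classes. Endothelium had 535 CPM in KO and 575 in WT, basal cells 432 and 420, fibroblasts 411 and 499, and pericyte or smooth muscle cells 376 and 425. The luminal classes were lowest, progenitors at 73.6 and 115, and hormone-sensing cells at 77.6 and 105. Basal and luminal cells, which form the same ducts, therefore differed in Smad7 in both libraries.

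**Figure D1:**
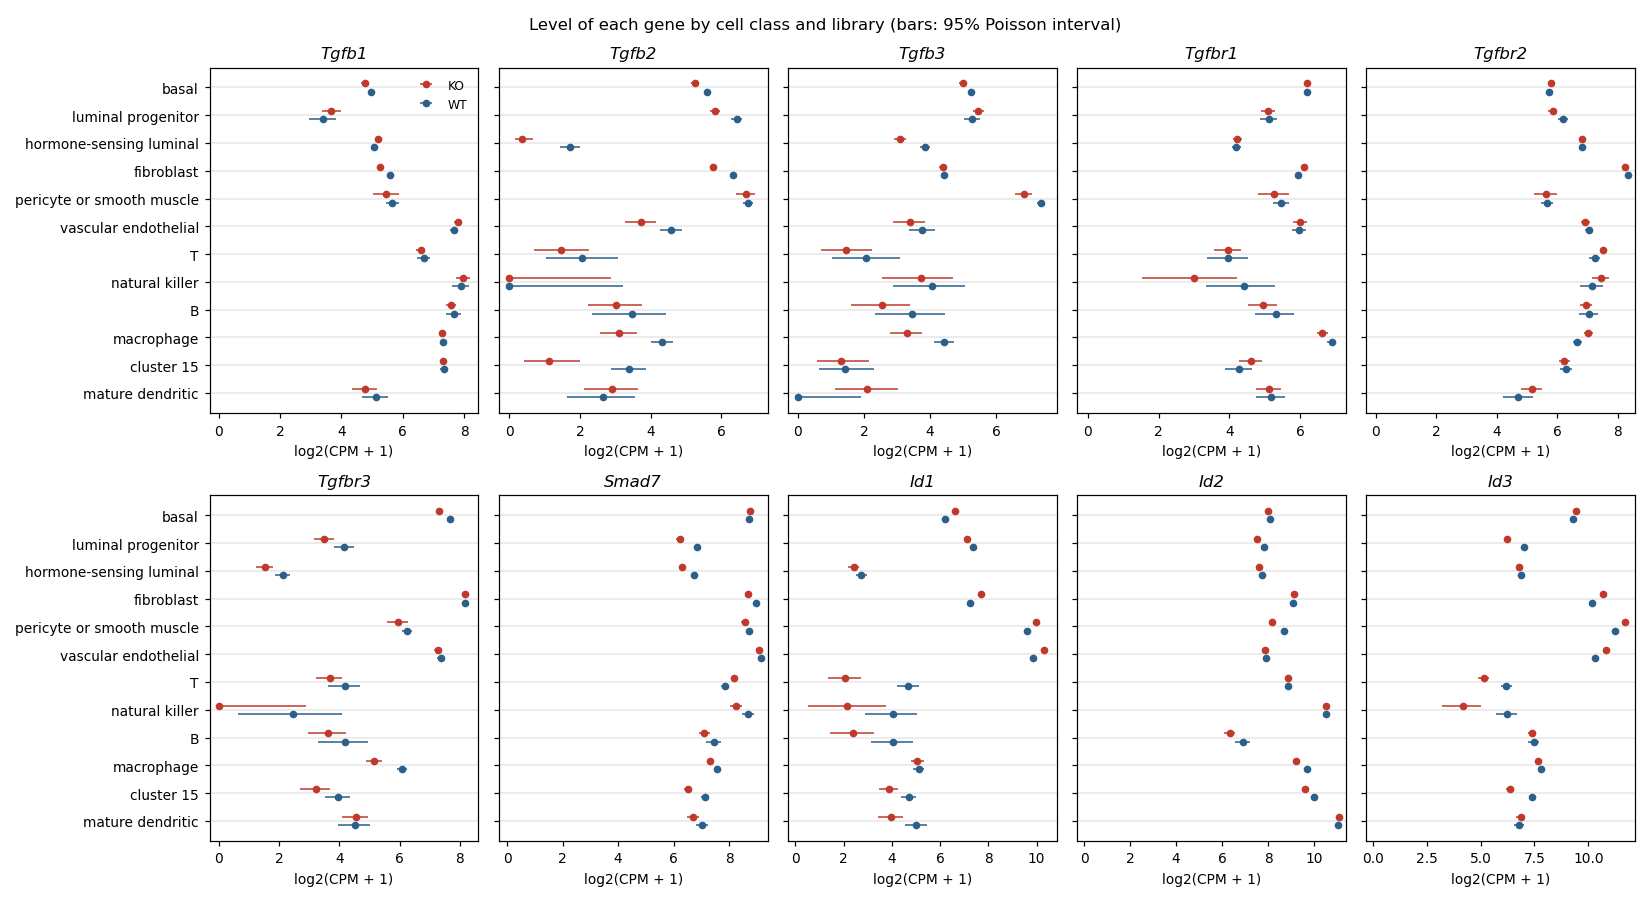
Level of each of the 10 genes (x axis, log2 of CPM plus 1) in 12 cell classes (rows), KO in red and WT in blue, with 95% Poisson intervals. Id1 and Id3 lie far right in pericyte or smooth muscle cells and endothelium, Id2 in mature dendritic and natural killer cells (2165 and 1467 CPM in KO).

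Id1 and Id3 were highest in endothelium and mural cells, and Id2 in mature dendritic and natural killer cells. Id3 (chromosome 4, 136143497 to 136145755) stood at 3334 CPM in KO and 2413 in WT pericyte or smooth muscle cells, at 1808 and 1269.5 in endothelium, at 1622 and 1172 in fibroblasts, and at 692 and 619 in basal cells. Natural killer cells had 17.3 and 74.0 and T cells 34.2 and 72.4. Id1 (chromosome 2, 152736251 to 152737410) stood at 1256 and 932 in endothelium, 1017 and 776 in pericyte or smooth muscle cells, and 204 and 148 in fibroblasts. In the luminal lineage it was again uneven, with 136 and 164 in progenitors but 4.33 and 5.69 in hormone-sensing cells, where B cells had 4.19 and 15.7. Id2 (chromosome 12, 25093799 to 25097140) was highest in mature dendritic cells at 2165 and 2092, then in natural killer cells at 1467 and 1450, cluster 15 at 769 and 1005, and macrophages at 587 and 817. Fibroblasts followed at 553 and 546, above T cells at 457 and 467, and held 44.0% of all Id2 UMIs in KO and 40.1% in WT. B cells were lowest in Id2, at 78.9 and 117. Id2 is known as a factor that natural killer and dendritic cells need to develop.

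RefSeq promoter windows on GRCm38.p6 were found for 6 of the 9 genes looked up, among them Id2 and Id3 but not Id1. The stretches of 30 bases that follow are shown because Id2 was highest in mature dendritic cells and Id3 in pericyte or smooth muscle cells. Capitals mark a match to CAGAC (or its reverse complement GTCTG), the core of the Smad-binding CAGA box, or to GGCGCC, a GC-rich Smad motif that is its own reverse complement. Both strands of the 250 bases before the start site were searched, and no match overlapped another.
Id3, chr4:136143643-136143672, plus strand: tgtcctcggcgtCAGACcagcctaaggaag
Id3, chr4:136143742-136143771, plus strand: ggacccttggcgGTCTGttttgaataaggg
Id2, chr12:25096306-25096335, minus strand: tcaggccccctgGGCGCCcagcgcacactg
CAGAC occurred in 42.2% and GGCGCC in 9.59% of the 32851 promoter windows in the table. Id2 held 0 matches to CAGAC and Id3 held 0 to GGCGCC. Both windows overlap exons of other GENCODE transcripts of the same gene, and both have a GC content of 62.8%. A match is a string of letters in this window and not a measured binding site.

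The 5 fibroblast clusters differed in their levels of the genes. Cluster 0, led by Stra6, Crabp1 and Col13a1, held most of the Id1, at 525.5 CPM in KO and 379.9 in WT, and the most Id3, at 3222 and 2388. Cluster 3, led by Pi16 and Dpp4, 2 known markers of adventitial fibroblasts, had 12.5 and 19.6 CPM of Id1. The same cluster 3 had the most Tgfbr2 (498 and 570.4) and Id2 (906 and 940). Its Tgfbr3 was 368 and 426, against 363 and 338 in cluster 0, and the KO intervals of that pair overlapped. Its Tgfb2 was 112 in KO and 144 in WT, against 19.2 and 28.9 in cluster 0. Cluster 0 had the most Tgfbr1, at 116 and 103, and cluster 5, led by Gdf10 and Clec11a, the least, at 16.0 and 17.1. Clusters 0 and 3 thus had opposite orders of the ligand Tgfb2 and of Id1 in both libraries, whereas cluster 2 was above cluster 5 in both genes. Cluster 17, led by Ifit1, differed between libraries: its Tgfb2 was 52.0 in KO and 153 in WT, and its Tgfb1 54.6 and 22.4, on 63 and 42 UMIs.

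**Figure D2:**
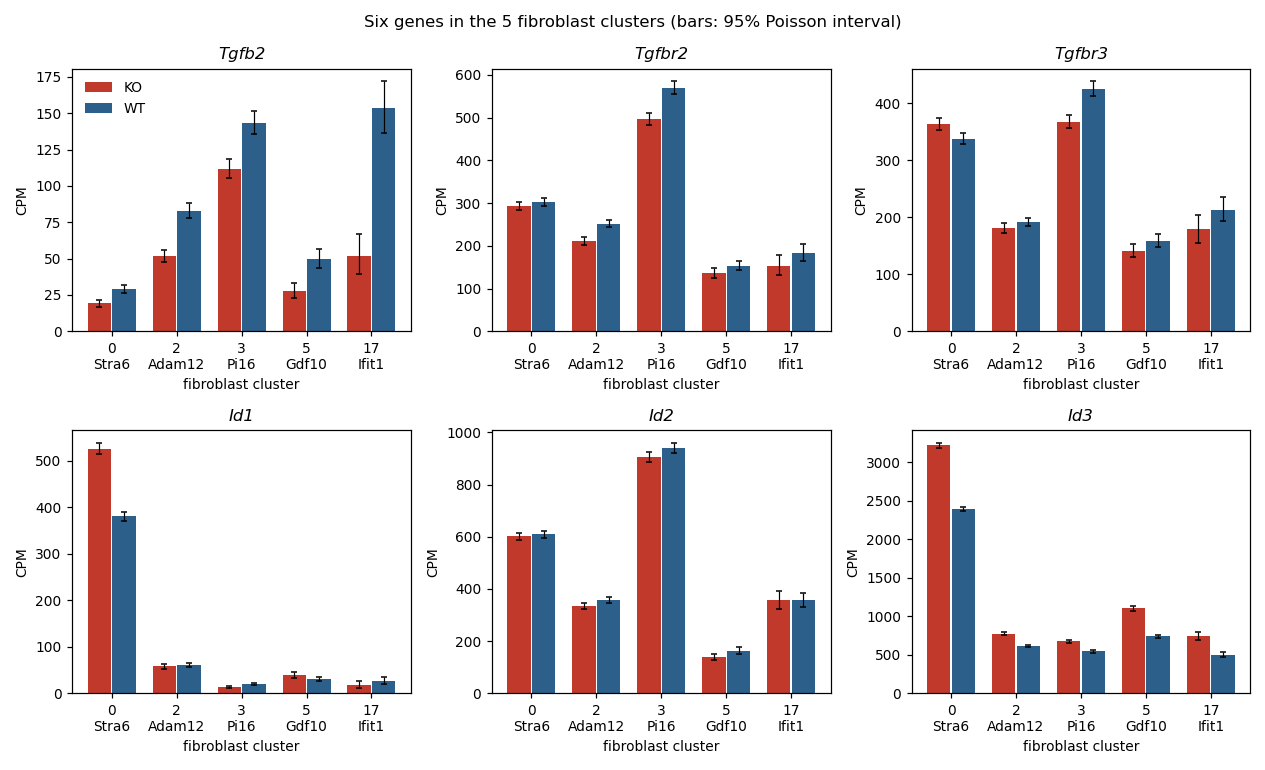
CPM (y axis) of 6 of the genes in the 5 fibroblast clusters (x axis, with a leading gene), KO in red and WT in blue, with 95% Poisson intervals. Id1 and Id3 peak in cluster 0 and Tgfbr2 and Id2 in cluster 3; Id3 is higher and Tgfb2 lower in KO in each of the 5 clusters.

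The clusters of other classes also differed. T cells of cluster 20, led by Il17a and Cxcr6, had 993 CPM of Id2 in KO and 844 in WT, against 158 and 195 in cluster 10, led by Lef1 and Cd8b1. Tgfb1 followed that division, at 181 and 172 against 47.1 and 51.3. Smad7 went the other way, at 163 and 161 against 357 and 284. In basal cells the contractile cluster 4 had 549 and 569 CPM of Smad7, and cluster 14, led by Lbhd2 and Col9a1, 172 and 170.3.

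A single population held much of the WT Tgfb2. Cluster 11, led by Rxfp2, Rspo3 and Myoc and holding 4 of 7 fibroblast markers, had 629 WT cells but 15 KO cells. Its WT cells had 604 CPM of Tgfb2, 478 of Id1 and 2090 of Id3. It held 39.1% of all WT Tgfb2 UMIs with 5.98% of the WT cells, against 0.404% in KO. Over the whole libraries Tgfb2 was 28.8 CPM in KO and 71.5 in WT, and 28.7 and 45.7 with cluster 11 left out. Tgfb3 was 18.1 and 25.4 with it and 18.1 and 24.5 without it. Because the cluster comes almost from 1 library, it enters no comparison below. Genotype and library cannot be told apart for it or for any class compared, since each genotype is 1 library.

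The comparison of KO with WT asked which of the 10 genes differed within a class. A gene was counted in a class with at least 50 UMIs over both libraries and called past 1.5-fold on the scale of log2(CPM + 1). In the 4 main classes all 40 gene and class pairs were measured, 0 were called higher and 7 lower in KO. In the 12 classes 104 of 120 pairs were measured, 0 were called higher and 18 lower. In basal cells 0 of 10 genes were called, where 1.65% of all 12510 genes measured there were higher and 4.67% lower. In fibroblasts 0 of 10 were called, against 2.04% higher and 2.85% lower of 13161 genes. In luminal progenitors 4 of 10 were lower, against 5.19% higher and 6.23% lower of 9362 genes. In hormone-sensing cells 3 of 10 were lower, against 1.61% and 5.5% of 11892 genes. The medians of the 10 genes were -0.02 in basal cells and -0.02 in fibroblasts, -0.32 in luminal progenitors and -0.24 in hormone-sensing cells. Those of all genes measured were -0.05, -0.06, -0.03 and -0.06.

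In the stroma Id1 and Id3 were higher in KO, each by less than 1.5-fold. The log2 ratio of Id3 was 0.47 in fibroblasts (interval 0.45 to 0.49), 0.51 in endothelium (0.45 to 0.57) and 0.47 in pericyte or smooth muscle cells (0.41 to 0.52). That of Id1 was 0.46 in fibroblasts (0.41 to 0.50), 0.43 in endothelium (0.36 to 0.50) and 0.39 in pericyte or smooth muscle cells (0.29 to 0.49). Basal cells, an epithelial class, stood at 0.41 for Id1 and 0.16 for Id3. These 8 values stayed above 0 in each of their 12 alternative settings, Id3 in fibroblasts between 0.38 and 0.56 and Id1 between 0.26 and 0.54. Id1 in pericyte or smooth muscle cells reached 0.74 and Id3 in endothelium 0.59, both past the call. Each of that pair stayed short of the call in 11 of 12 settings. Id3 was higher in KO in 5 of 5 fibroblast clusters, by 0.31 to 0.58. Id1 was not: it was 0.47 in cluster 0, where most of it lies, and 0.33 in cluster 5. In clusters 2, 17 and 3 Id1 was below 0, at -0.08, -0.54 and -0.61. The KO and WT intervals of its level overlapped in clusters 2, 5 and 17. In basal cells Id1 and Id3 were at 0.47 and 0.14 in cluster 4, and at 0.22 and 0.15 in cluster 14. In cluster 23, also basal, they were at -0.16 and -0.25, and the KO and WT intervals of Id3 did not overlap. Summed fibroblast, vascular endothelial and mural marker levels were not higher in the KO cells of these classes than in WT, except vascular endothelial markers, at 5654 against 5479 CPM in endothelium and 269 against 236 in pericyte or smooth muscle cells. In the endothelial class the 7 lymphatic endothelial markers, all detected in both libraries, summed to 1902 CPM in KO and 216 in WT, and their part in its Id1 and Id3 values was not tested. The KO fibroblasts were shallower, with a median of 8501 UMIs against 11013.5 in WT. Id2 stood at 0.02 in fibroblasts (-0.01 to 0.04) and -0.50 in pericyte or smooth muscle cells (-0.68 to -0.33).

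In luminal progenitors the lower genes were Id3 at -0.81 (interval -0.99 to -0.62), Tgfbr3 at -0.67 (-1.15 to -0.18), Smad7 at -0.64 (-0.83 to -0.45) and Tgfb2 at -0.61 (-0.83 to -0.39). The 5 cells with most UMIs of the gene took up 24.3% of Id3 UMIs in KO and 21.3% in WT. Summed fibroblast markers, which these cells should lack, were 268 CPM in KO and 781 in WT progenitors, with all 7 detected in each. If those markers and the genes came over in the ratio they have in fibroblasts of the same library, 7.93 of 72.6 CPM of Id3 in KO and 14.8 of 128 in WT would be carried over. After subtracting that share the log2 ratio of Id3 was -0.80, of Smad7 -0.60 and of Tgfb2 -0.60, while Tgfbr3, at -0.54, was no longer past the call. The share was taken from the fibroblast class and not from cluster 11. That cluster held 39.1% of WT Tgfb2 and 13.7% of WT Id3 UMIs, and carry-over from it was not tested. Cluster 6, an unnamed cluster with 6 of 8 luminal progenitor and 7 of 8 hormone-sensing markers, had 71.5 CPM of Id3 in KO and 107 in WT, 79.5 and 104 of Smad7, and 20.3 and 29.6 of Tgfb2. Its median depth was 31272 UMIs in KO and 33826 in WT, against 11474 and 12071 in progenitors, and whether its barcodes hold RNA of progenitor cells was not tested.

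In hormone-sensing cells Tgfb2 was at -1.36, Tgfb3 at -0.75 (interval -0.998 to -0.51) and Tgfbr3 at -0.60. Tgfb2 rested on 7 KO and 52 WT UMIs and Tgfbr3 on 46 and 76, and both levels were below those of B cells in both libraries. With the carry-over from fibroblasts subtracted they were at -1.24 and -0.17, the second no longer past the call. Tgfb3 rested on 183 UMIs in KO and 301 in WT, and the log2 ratio was -0.75 with the carry-over from fibroblasts subtracted. Smad7 was at -0.43 (-0.51 to -0.34), short of the call. Summed fibroblast markers in this class were 83.2 CPM in KO and 348 in WT.

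Tgfb2 was below 0 in all 7 classes where it was measured, as was the median of all genes measured in each of them. Fibroblasts stood at -0.55 (interval -0.63 to -0.475), just short of the call, endothelium at -0.85 (-1.40 to -0.31), basal cells at -0.36 and pericyte or smooth muscle cells at -0.06 (-0.38 to 0.24), the value that turned to 0.02 in 1 of 12 alternative settings. In fibroblasts it was below 0 in 5 of 5 clusters, from -0.36 in cluster 3 to -1.54 in cluster 17. Endothelium held 38 KO and 84 WT UMIs of Tgfb2, and its fibroblast markers summed to 1182 CPM in KO and 2853 in WT. The part of those markers in this value was not tested.

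Smad7 was below 0 in 10 of 12 classes, T cells (0.30, interval 0.13 to 0.48) and basal cells (0.04, interval -0.0017 to 0.083) being the exceptions. The median of all genes measured was also below 0 in each class, from -0.01 in B cells to -0.13 in cluster 15. Fibroblasts were at -0.28 (-0.31 to -0.25) and in 5 of 5 fibroblast clusters the value was below 0. Tgfbr1 stayed within 1.5-fold in all 11 classes measured and Tgfbr2 in all 12. Their fibroblast values were 0.15 and -0.10.

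**Figure D3:**
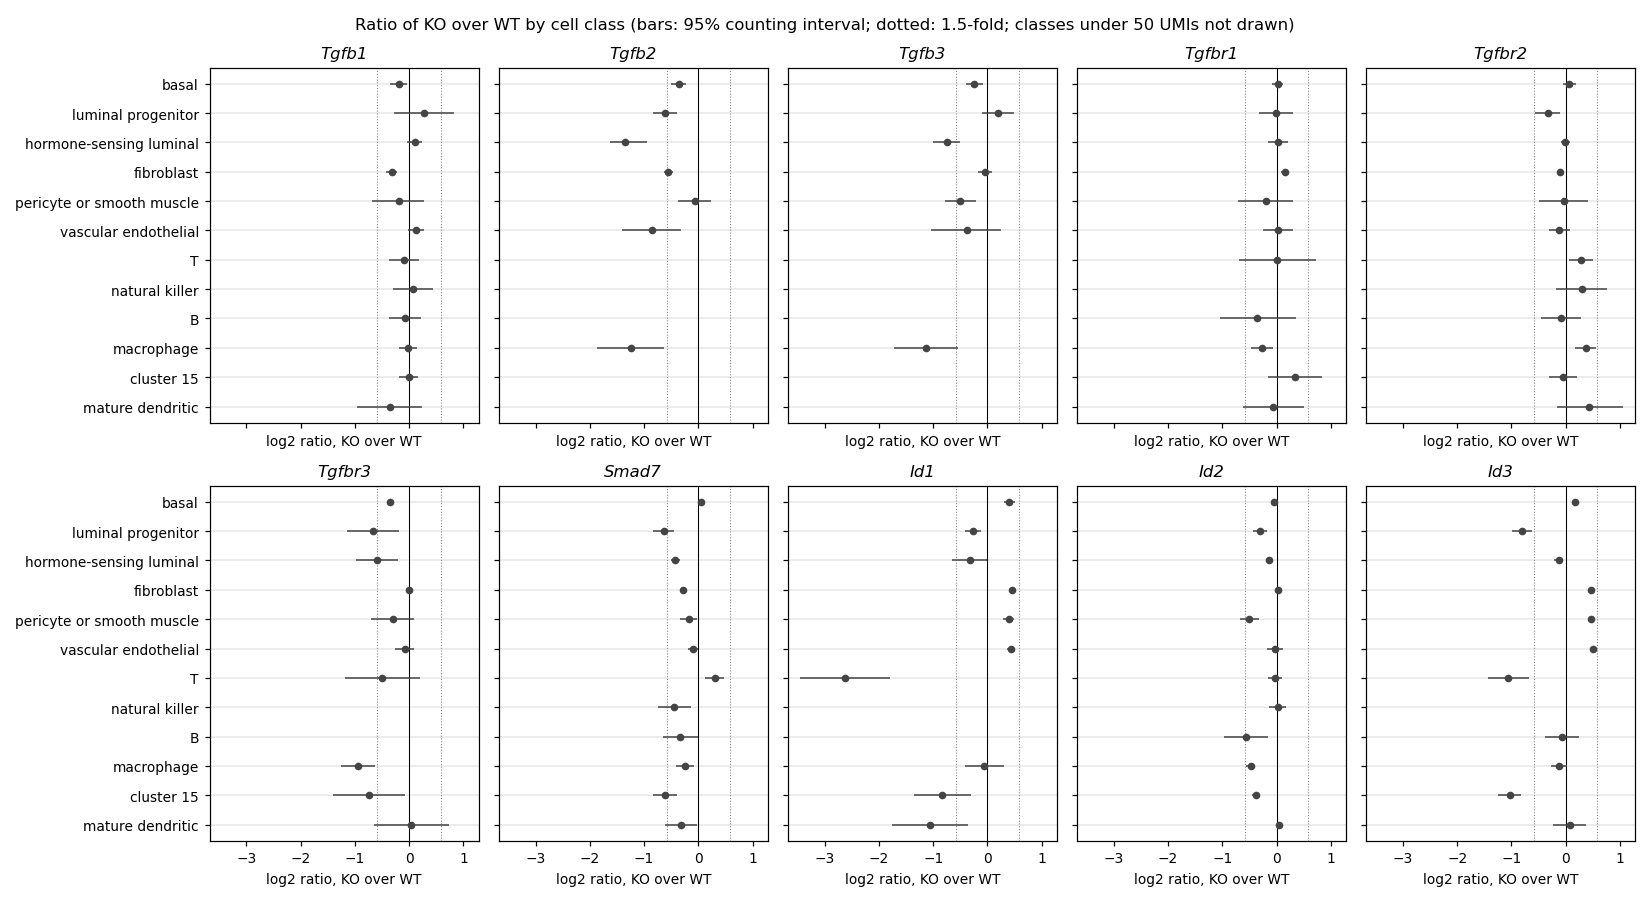
Log2 ratio of KO over WT (x axis) of each gene in each class (rows) with its 95% counting interval; dotted lines mark 1.5-fold. Id1 and Id3 lie right of 0 in basal, fibroblast, mural and endothelial cells and left of 0 in luminal progenitors and T cells.

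The immune classes held the other calls. In T cells Id1 and Id3 were lower, 2 of 8 measured, against 3.57% of 7086 genes higher and 12.0% lower. Id1 rested on 11 KO and 39 WT UMIs, of which 5 cells held 63.6% and 89.7%, and Id3 on 119 and 114, with 48.2% of the WT UMIs in 5 cells. Id3 was at -1.06, and at 0.50 when called doublets were kept and cells clustered anew. In cluster 15, Id1, Id3, Smad7 and Tgfbr3 were lower, 4 of 8, against 4.35% higher and 12.7% lower of 7917 genes. Macrophages had 3 of 10 lower (Tgfb2, Tgfb3 and Tgfbr3), against 7.14% and 10.9% of 9294 genes. Mature dendritic cells had 1 of 8 lower, Id1, against 6.36% and 14.5% of 5487 genes, and 88.1% of its 42 WT UMIs were in 5 cells. Endothelium had 1 of 10 lower, Tgfb2, against 3.46% and 8.71% of 8764 genes. No gene was called among 10 in pericyte or smooth muscle cells (6.52% higher and 10.8% lower of 7317 genes), 6 in B cells (7.48% and 9.09% of 5336) and 4 in natural killer cells (8.01% and 10.2% of 2872). Beside these values stood more stromal RNA in WT. Summed fibroblast markers were 233 CPM in KO and 1008 in WT T cells, 616 and 3250 in cluster 15, and 1662 and 5079 in mature dendritic cells. In macrophages they were 1697 and 1417, but basal markers there summed to 2048 in KO and 3162 in WT. After subtracting the fibroblast share, Id3 in cluster 15 was at -0.73, Id1 at -0.57 and Smad7 at -0.39, the latter pair no longer past the call, and Tgfbr3 turned to 2.60, with all its WT level accounted for. Over the luminal and immune classes, 12 of 17 lower calls stayed after that subtraction, which left out cluster 11. The subtraction also put 3 other pairs past the call as higher and 2 as lower. The higher ones were Tgfbr2 (4.73), Tgfbr3 (3.86) and Id3 (2.16) in mature dendritic cells. For Tgfbr2 there, the WT share to subtract was 26.6 CPM, more than its level of 25.4. The lower ones were Id2 (-0.90) and Id3 (-0.66) in B cells. The part of basal cell RNA in the macrophage values was not tested.

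Other genes of the pathway, in lists chosen by role, were compared in the 4 main classes. The median of all genes measured was itself below 0 in each of these classes. In basal cells 1 of 8 TGF-beta responsive genes was called higher, Ccn2, a matricellular protein, at 659.8 CPM in KO and 434 in WT. Tgfbi, a matrix protein, was called lower there at 1.77 and 3.35. None of 10 genes of latency and activation was called: Ltbp2 was highest at 160.2 and 145 and Ltbp4 lowest at 38.5 and 54.8. None of 8 other receptors was called, and all 8 were below 0, from Acvr1b (21.6 and 23.8) to Acvr2b (3.42 and 5.28). Of 6 Smad transducers none was called, with Smad1, a BMP-branch Smad, highest at 144 and 102 (log2 ratio 0.50) and Smad2 lowest at 37.4 and 46.6. Of 8 inhibitors none was called, with Pmepa1 highest at 1753 and 1442 and Ski lowest at 127 and 179. Id4, the fourth Id gene, was the basal one, at 253 and 265, and Tcf4 the lowest E protein, at 132 and 172.

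In luminal progenitors 2 of 9 latency genes were called lower, and the range ran from Ltbp4 (3.37 CPM in KO and 11.7 in WT) to Ltbp1 (77.6 and 54.0). Of 6 other receptors 2 were lower, from Acvr1, a BMP type I receptor, at 49.2 and 88.7 to Acvrl1 at 5.62 and 4.50. None of 5 Smad transducers was called, all 5 being below 0, from Smad3 (32.6 and 44.8) to Smad4 (63.5 and 69.1). None of 7 inhibitors was called, with Ski at 45.2 and 67.0 and Bambi at 23.5 and 20.7. Of 5 responsive genes 1 was lower, Tgfb1i1, at 13.2 and 22.5, and Tsc22d1 was highest at 160.4 and 138. Id4 was called lower at 3.05 and 8.21, on 19 and 31 UMIs, and Tcf12 was highest in its list at 84.7 and 73.6.

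In hormone-sensing cells 4 of 9 latency genes were lower, with Lrrc32 at 0.326 CPM in KO and 2.07 in WT, and Ltbp2 highest at 3.10 and 1.81. None of 8 other receptors was called, from Acvr1 (25.6 and 36.6) to Eng (26.8 and 20.99), and none of 5 Smads, from Smad5 (22.6 and 28.3) to Smad4 (59.0 and 60.0). Of 7 inhibitors 1 was lower, Ski, a repressor of Smad complexes, at 43.7 and 67.4, and Smad6 was highest at 2.37 and 2.12. Of 8 responsive genes 3 were lower, Ccn2 the lowest at 1.59 and 5.20, and Cdkn2b was highest at 6.57 and 5.29. Tcf4 was lower at 91.1 and 141, and Id4 stood at 2.33 and 2.29.

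In fibroblasts 1 gene was called in all lists together: Ski, lower at 116 CPM in KO and 175 in WT. All 8 inhibitors were below 0, up to Smad6 at 30.3 and 31.1. Among 10 latency genes Lrrc32 was lowest at 99.2 and 147 and Ltbp1 highest at 149.8 and 125. The 8 other receptors ran from Acvr1b (10.4 and 14.1) to Eng (23.7 and 22.4), and the 6 Smads from Smad5 (58.3 and 67.1) to Smad1 (158 and 134). Of the 8 responsive genes Cdkn2b had the highest ratio, at 4.51 and 3.02. Tcf4 was at 669 and 874 and Id4 at 29.3 and 30.1.

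**Figure D4:**
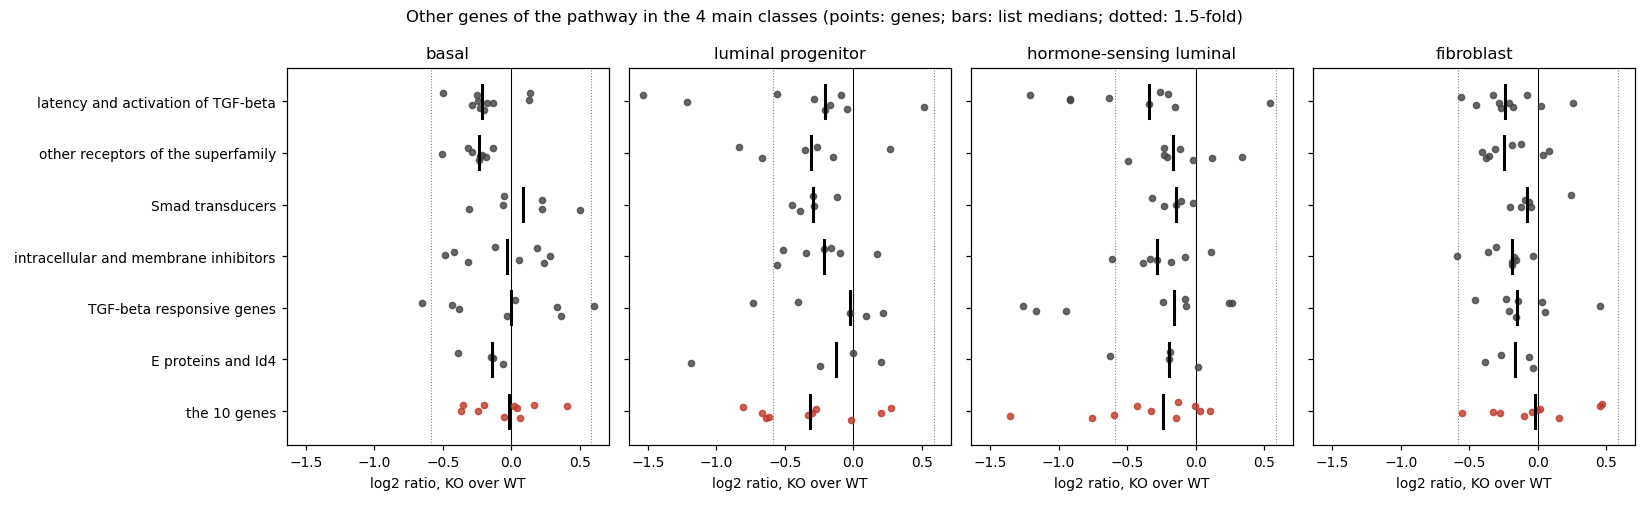
Log2 ratio of KO over WT (x axis) of each measured gene of 6 pathway lists and of the 10 genes (red), in the 4 main classes; short bars are list medians and dotted lines 1.5-fold. List medians lie between -0.34 and 0.08, and that of latency genes is below 0 in each class, from -0.34 to -0.21.

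The genes most like each member were taken from 9397 genes over 11 named classes, which share their libraries and depth. Id3 was most like Gjc1, a gap junction gene (Pearson r 0.985), then Pla2r1 and Fam13c. Id1 was most like Nes, which encodes nestin (r 0.979), then Acyp2 and Spry4. Id2 was most like Gramd1b (0.891), then Suox and Serpinb9, all 3 highest in mature dendritic cells. Tgfb1 was most like Polr2a (0.936), Tm6sf1 and Fli1, Tgfb2 most like Casp12 (0.961), Ncs1 and Vldlr, and Tgfb3 most like Slmap (0.922), with Dcun1d1 also among its top 3. Tgfbr1 was most like Itga9 (0.957), Igfbp3 and Tlr2, Tgfbr2 most like Tmem50a (0.914), Tram1 and Emc3, and Tgfbr3 most like Nrep (0.968), Ppic and Cdkn1c. Smad7 was most like Chd1 (0.965), Slc35d1 and Elmo2. Among the 10 genes themselves r was 0.845 for Id1 and Id3, 0.808 for Tgfb2 and Id1, and -0.485 for Tgfb1 and Tgfb2.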

How the data were processed

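The values are whole-number UMI counts per gene and barcode, deposited by the authors, from 10x Genomics 3′ version 2 libraries per the labels. Per the submitters' processing notes the build was mm10 and the tools Seurat 3.2.0 and Cell Ranger 5.0.1. All columns were mapped to a sample. The libraries held 139757797 (KO) and 160026788 (WT) UMIs.

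Barcodes were kept with at least 500 genes, 1000 UMIs and at most 10% mitochondrial UMIs. Scrublet (scanpy 1.11.5) called 435 KO (3.99%) and 461 WT (4.20%) doublets, which were removed; with another random seed its automatic threshold failed in WT, and that run was not used. Scaling to 10000, 2000 variable genes without the 10 genes and Gpm6a, 30 components, 20 neighbours and Leiden clustering (leidenalg 0.10.2) at resolution 1 followed, with no correction between libraries. Clusters were named from markers of 24 cell types. The naming thresholds, but not the markers, were revised once the clusters had been seen. Rebuilt classes can differ from the authors' own.

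UMIs were summed per class and library. Ratios are log2 of KO over WT after adding 1 CPM to each. Intervals are exact Poisson (CPM) and conditional binomial (ratio, on the same log2 scale with the pseudocount). The 1.5-fold rule was run on Poisson counts simulated from the WT sums, with planted changes larger than 1.5-fold. That run did not cover changes near 1.5-fold or differences between animals or libraries. No test and no p-value is given. Named genes are the 10 members, the highest and lowest gene of each list in each main class, Id4, and the 3 genes most alike to each member; 2 results these rules name are not reported here. Genes outside these rules that lead a cluster were named after their values were seen. Members and lists were chosen with earlier results of these data known. Alternatives were a pseudocount of 0.1 or 5 CPM, edgeR TMM factors, thinning to 2000 UMIs, means over cells, leaving out 5 top cells, at most 5% mitochondrial UMIs, kept doublets, resolutions 0.5 and 2, members among variable genes, cells classed one by one, and no minimum of UMIs.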

Additional observations from a re-analysis of the deposited data

Results flagged for a closer look

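The ratios of Id1 and Id3 lay above 0 in some classes and below 0 in others, and this difference was not tested, since each genotype is 1 library. The log2 ratio of Id1 was highest in fibroblasts (0.46) and lowest in T cells (-2.63), where it rested on 11 KO and 39 WT UMIs. That of Id3 was highest in endothelium (0.51) and lowest in T cells (-1.06). It was -0.81 in luminal progenitors, which have the most Id3 UMIs of the classes where it was called lower (452 KO and 483 WT). Hormone-sensing cells, with 2634 KO and 2670 WT UMIs, stood at -0.13, short of the call.

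In cells that enter no comparison, Tgfb2 in the WT cells of cluster 11 stood at 604 CPM (603.6), above its level in every other cluster of at least 50 cells. That cluster had 15 KO cells.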

How the results depend on the processing

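No paired analysis was possible because each genotype is 1 library. The count of genes called higher in the main classes was 0 under every alternative run. The count called lower was 7, and 2 with a pseudocount of 5 CPM, which shrinks ratios of low genes by construction; the other alternatives gave 5 to 8. Of 1272 recomputed ratios, 1116 stayed within the counting interval of the reported value, 152 moved outside it, and 4 were of a called ratio that turned sign. Counting ratios short of the call too, 116 turned sign. The 4 were Tgfbr3 in hormone-sensing cells thinned to 2000 UMIs (0.23), Id3 in T cells with doublets kept (0.50), Tgfbr3 in cluster 15 with the fibroblast carry-over subtracted (2.60), and Id1 in mature dendritic cells without the 5 top cells (0.65). The cause was not tested, except that the subtraction leaves no WT level of Tgfbr3 in cluster 15. TMM scaling raised all ratios of a class, by 0.20 in T cells, 0.15 in cluster 15 and 0.15 in mature dendritic cells and by under 0.1 elsewhere (-0.0049 in mural cells), and kept 15 of 18 lower calls; thinning kept 11. Id3 in luminal progenitors (-0.997 to -0.70) was called lower in 13 of 13 alternatives, Smad7 there in 11 of 13 and Tgfb2 there in 7 of 13. The carry-over subtraction was chosen after seeing the data and took no account of cluster 11. Cluster 15 was labelled by number in the reported clustering only. It has no value where cells were clustered or classed anew, and a counterpart was not looked for. Depth limits the low genes of small classes, where 16 of 120 pairs fell under 50 UMIs.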
